A study of Mus musculus with 9 samples.

Results

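Imprinted control regions are stretches of DNA that carry methylation on only the maternal or only the paternal allele, and 10 of them were examined here for signal in chromatin immunoprecipitation sequencing (ChIP-seq) of SMAD1. They are the regions named for Mest, Peg3, Gnas, Zrsr1, Kcnq1ot1, Airn, Plagl1, Grb10, Peg10 and Snrpn. Each was defined by a position on the mouse genome build mm9, and the 2 kb windows whose midpoint lay within 10 kb of it were taken, which gave 204 of 2654924 windows. The positions had been chosen with SMAD1 enrichment in these same libraries in view, so the SMAD1 values at these regions are a description and not a test. No mm9 gene annotation was used here, so the gene names rest on those positions, and whether a window is exonic or intronic was not read.

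The libraries came from mouse cells labelled EpiLC (epiblast-like cells, made from embryonic stem cells) of strain C57BL/6, on the way to primordial germ cell-like cells. BV denotes a line with a Blimp1-mVenus reporter and PV a line with a Prdm14-mVenus reporter, so every library carries a reporter for a germ cell gene. SMAD1 was profiled at 12, 24 and 36 h in BV (the 12 h, 24 h and 36 h BV libraries) and at 36 h in PV (36 h PV). T (Brachyury) was profiled in PV only and TCF1 in BV only. The 3 inputs are titled BV, PV and BVSC, the last labelled as the BV line. The labels give no time for T and TCF1 and do not say which library received BMP4 or WNT3A. Each group was 1 library, so no difference below has a replicate check, and the intervals given cover counting error only.

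Methylation of imprinted control regions is set in the egg or the sperm, is kept through the early embryo, and is erased in primordial germ cells before it is set again. In the early embryo the zinc finger protein ZFP57 binds methylated control regions at the motif TGCCGC and recruits TRIM28, which keeps the mark. SMAD1 is the transcription factor that carries the BMP signal to DNA, T is a T-box factor of the mesoderm, and TCF1 acts with beta-catenin in WNT signalling. All 10 regions are known as maternally methylated.

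The promoters of a few genes that name such regions are printed as examples, and need not be the sequence under the SMAD1 signal. The strongest region by SMAD1 (Zrsr1), those of Mest and Peg3, and 2 regions outside the list, Nap1l5 with clear and Slc38a4 with little SMAD1 signal, are shown by the 250 bases before their annotated start from RefSeq (build GRCm38.p6), with TGCCGC on either strand in capitals. Where a gene had several starts, the one with most CpG was taken, which tilts the comparison with all promoters toward CpG-rich sequence. Because that build is not mm9, whether each promoter lies inside the window measured was not read.
Zrsr1: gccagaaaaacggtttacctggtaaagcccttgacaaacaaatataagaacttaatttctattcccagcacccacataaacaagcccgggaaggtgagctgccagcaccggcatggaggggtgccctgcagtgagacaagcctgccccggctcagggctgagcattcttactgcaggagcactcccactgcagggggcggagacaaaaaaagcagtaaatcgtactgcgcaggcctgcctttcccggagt
Mest: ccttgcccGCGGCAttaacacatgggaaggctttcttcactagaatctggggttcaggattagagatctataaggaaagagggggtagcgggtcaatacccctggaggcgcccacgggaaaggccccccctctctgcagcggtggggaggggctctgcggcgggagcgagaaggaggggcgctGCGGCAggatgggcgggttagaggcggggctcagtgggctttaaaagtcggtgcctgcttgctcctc
Peg3: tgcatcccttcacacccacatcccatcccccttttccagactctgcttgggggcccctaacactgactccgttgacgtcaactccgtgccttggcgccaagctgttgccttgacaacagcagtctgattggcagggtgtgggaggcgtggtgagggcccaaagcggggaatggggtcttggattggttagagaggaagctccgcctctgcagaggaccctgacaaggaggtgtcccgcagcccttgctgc
Nap1l5: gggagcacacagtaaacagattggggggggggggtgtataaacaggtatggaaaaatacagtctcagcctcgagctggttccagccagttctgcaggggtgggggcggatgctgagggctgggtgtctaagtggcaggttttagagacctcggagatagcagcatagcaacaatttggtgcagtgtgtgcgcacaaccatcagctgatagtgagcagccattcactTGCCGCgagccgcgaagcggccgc
Slc38a4: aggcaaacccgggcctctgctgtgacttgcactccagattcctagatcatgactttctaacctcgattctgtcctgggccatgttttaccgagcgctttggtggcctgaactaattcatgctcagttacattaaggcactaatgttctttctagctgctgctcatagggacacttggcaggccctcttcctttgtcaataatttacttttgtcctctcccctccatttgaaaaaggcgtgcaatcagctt
Mest holds the motif 2 times and Nap1l5 1 time in these stretches, whereas Zrsr1, Peg3 and Slc38a4 do not hold these letters there. Over the full 300 bases, which run to 50 bases after the start, TGCCGC was found in 4 of the 8 members with a promoter used (Mest, Plagl1, Grb10 and Snrpn), against 11.6% of 32841 promoters. It was also found in 4 of 7 promoters of genes that name other imprinted control regions described below, with Meg3 taken for Dlk1-Meg3. These are gene promoters and need not lie in the control regions. Peg10 had no promoter in the table, and Gnas, which has 4 distant ones, was left out. The palindrome GGCGCC, a GC-rich SMAD motif, was found in 3 of 8 against 11.9%. Of the 7 other promoters 1 held it, that of Rasgrf1, whose control region lies before the gene. CAGAC, the core of the SMAD binding element, was found in 4 of 8 against 49.6%, and in 5 of the 7 other promoters. The T-box motif TCACACCT (1.28% of promoters) and the TCF motif CTTTGAT (3.73%) were found in 0 of 8, and none of these motifs was searched elsewhere in the regions. The promoters of the members had a median GC content of 57.3% and 11.5 CpG dinucleotides, against 52.7% and 7 for all promoters.

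SMAD1 signal stood well above input at all 10 regions, most at 12 h. Each library was scaled so that its autosomal windows averaged 1 count and was divided by the input of its line, scaled likewise, after adding a pseudocount of 0.5 to both; this ratio is called enrichment. Each region is described at its summit, the window where log2 enrichment averaged over the 4 SMAD1 libraries was highest. At the summits SMAD1 enrichment ran from 3.58 to 12.8 at 12 h (median 8.17), from 2.15 to 7.62 at 24 h (median 4.64), from 2.37 to 6.01 in 36 h BV (median 3.08) and from 1.82 to 7.18 in 36 h PV (median 4.43). The median log2 enrichment over all 2368993 windows kept was between -0.04 and -0.02 in these libraries. The exact 95% interval of the plain ratio lay above 1 at all 10 regions in all 4 SMAD1 libraries, against 25.5%, 21.3%, 17.9% and 17.8% of 20 kb tiles over the genome at their own summits.

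At an enrichment of 4 or more, 9 of the 10 regions were called at 12 h, where 0.104% of 125202 tiles of 20 kb over the genome were called at their own summits. At 24 h 5 were called (0.0423% of tiles), in 36 h BV 4 (0.0144%) and in 36 h PV 6 (0.0647%). Since the positions were chosen on SMAD1 signal, these counts describe the choice. Zrsr1, Mest, Gnas and Peg3 were called in all 4 libraries, Airn in all but 36 h BV, and Peg10 in none. These calls depended on the setting. At the window nearest the given position, which for several members starts 1 kb before the summit, Zrsr1 alone was called in all 4. Mest was at 3.22 at 24 h and 3.71 in 36 h BV. Peg3 was at 3.66, 2.79 and 3.03 after 12 h, and Gnas at 3.90 in 36 h BV. Airn was then at 2.63 at 24 h and 2.84 in 36 h PV, and Plagl1 at 3.09 in 36 h PV. With a pseudocount of 1, Mest alone was called in all 4, since Peg3 (3.31) and Gnas (3.64) in 36 h BV and Zrsr1 (3.77) in 36 h PV were under 4. Kcnq1ot1 at 12 h was under 4 in both settings (3.54 and 3.69), and at 3.997 over input BVSC. Some settings added calls. Peg10 at 12 h was at 4.55 with a pseudocount of 0.1 and at 4.78 over input BVSC, and at 24 h at 4.13 over input BVSC. Airn in 36 h BV was at 4.17 with a pseudocount of 0.1 and at 4.41 with the libraries thinned to equal depth. At 2-fold or more the counts were 10, 10, 10 and 8 in the same order (1.63%, 0.35%, 0.553% and 0.553% of tiles). In all, 8 regions had at least 2-fold enrichment in each of the 4 SMAD1 libraries, which held for 0.0919% of tiles, and the exceptions were Grb10 and Peg10 in PV.

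**Figure D1:**
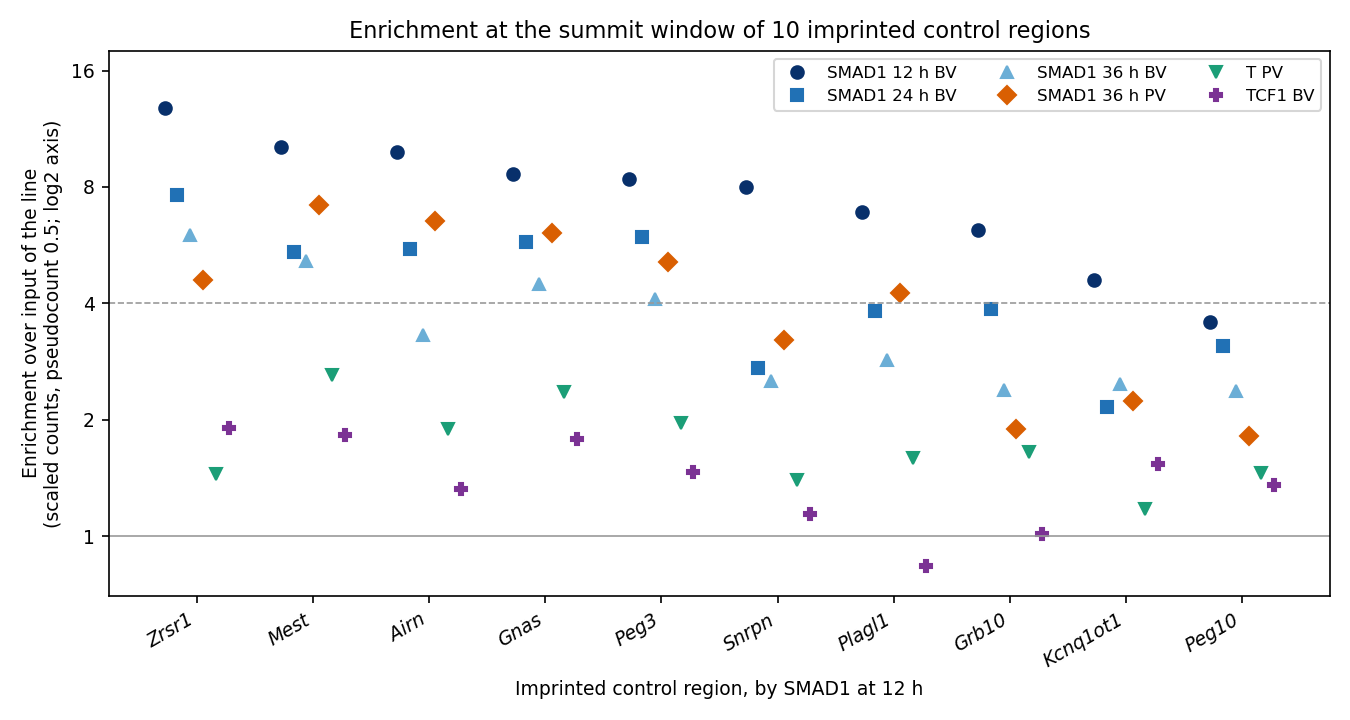
Enrichment over the input of the same line (log2 axis, pseudocount 0.5) at the summit window of each region, for the 6 immunoprecipitated libraries; the dashed line marks 4. SMAD1 at 12 h is the highest library at every region, from 12.8 at Zrsr1 to 3.58 at Peg10, while T and TCF1 lie between 0.838 and 2.62.

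Among genes for RNA-binding and DNA-binding proteins, Zrsr1, which encodes a splicing factor related to U2AF, had the highest 12 h value. Its summit on chromosome 11 at 22872001 to 22874001 held 286 reads at 12 h, 214 at 24 h and 107 in 36 h BV over 116 input reads, and 249 in PV over 40. Enrichment was 12.8, 7.62, 6.01 and 4.59 in that order, against 1.45 for T and 1.91 for TCF1. Zrsr1 was the highest of the 10 in all 3 BV libraries but the fifth in PV.

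Peg3, a gene for a large zinc finger protein expressed from the paternal allele, had its summit on chromosome 7 at 6681001 to 6683001. SMAD1 enrichment there was 8.36 at 12 h (166 reads over 100 in the input), 5.93 at 24 h, 4.11 in 36 h BV and 5.10 in 36 h PV (289 over 42). T measured 1.96 and TCF1 1.47. Plagl1 encodes a zinc finger transcription factor that restrains cell growth, and its summit on chromosome 10 at 12810001 to 12812001 had 6.89, 3.83, 2.85 and 4.26 in the same order, with 1.59 for T. It had the lowest TCF1 value of the 10, at 0.838 (14 reads, plain ratio 0.745, 95% interval 0.392 to 1.31).

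Snrpn, which encodes a protein of spliceosomal particles and lies in the region of the Prader-Willi and Angelman imprinting centre, had its summit on chromosome 7 at 67149001 to 67151001. It held 131 reads at 12 h and 51 at 24 h, although the 24 h library was the deeper. Enrichment was 7.98 at 12 h, 2.71 at 24 h, 2.52 in 36 h BV and 3.22 in PV, with 1.39 for T and 1.14 for TCF1. Its 24 h level was 0.304 of the 12 h level (95% interval 0.215 to 0.423), the lowest such ratio of the 10, though its interval overlapped that of Kcnq1ot1 (0.425, 0.294 to 0.609).

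Kcnq1ot1 and Airn are long noncoding RNAs transcribed from the unmethylated paternal control region, and each silences neighbouring genes on that chromosome. At Airn, on chromosome 17 at 12934001 to 12936001, SMAD1 enrichment was 9.83 at 12 h (199 reads over 102), 5.52 at 24 h, 3.30 in 36 h BV (51 reads) and 6.52 in PV (301 over 31), with 1.89 for T and 1.32 for TCF1. At Kcnq1ot1, on chromosome 7 at 150481001 to 150483001, it was 4.60, 2.15, 2.47 and 2.23, with 1.18 for T and 1.53 for TCF1. The Airn region was thus among the strongest and the Kcnq1ot1 region among the weakest. Input PV was itself raised at Kcnq1ot1, at 1.79 times its autosomal mean against 0.973 in input BV, and over input BVSC the PV value there was 3.02.

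Gnas and Grb10 are genes of signalling proteins: Gnas gives the stimulatory G protein subunit and its longer forms, and Grb10 an adaptor that restrains growth. At Gnas, on chromosome 2 at 174121001 to 174123001, SMAD1 enrichment was 8.66 at 12 h (185 reads over 111), 5.78 at 24 h, 4.49 in 36 h BV and 6.08 in PV, with 2.36 for T and 1.79 for TCF1. The stretch of windows at 2-fold or more was the widest of the 10 at 12 h, 9 kb, against a median of 4.5 kb. At Grb10, on chromosome 11 at 11925001 to 11927001, the values were 6.20, 3.87, 2.39 and 1.89, so that in PV it did not exceed T (1.64) by more than counting error, the SMAD1 to T ratio being 1.19 (95% interval 0.774 to 1.87). TCF1 there was at 1.01.

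Mest encodes a hydrolase-like protein expressed from the paternal allele, and Peg10 a protein derived from a retrotransposon that the placenta needs. Both lie on chromosome 6. At Mest (30687001 to 30689001) SMAD1 enrichment was 10.2 at 12 h (195 reads over 94), 5.42 at 24 h, 5.14 in 36 h BV and 7.18 in PV (311 over 28), the highest PV value of the 10, and T was at 2.62 and TCF1 at 1.83. At Peg10 (4697001 to 4699001) it was 3.58, 3.10, 2.37 and 1.82, with 1.46 for T and 1.35 for TCF1, and Peg10 had the lowest value at 12 h and in both 36 h libraries.

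**Figure D2:**
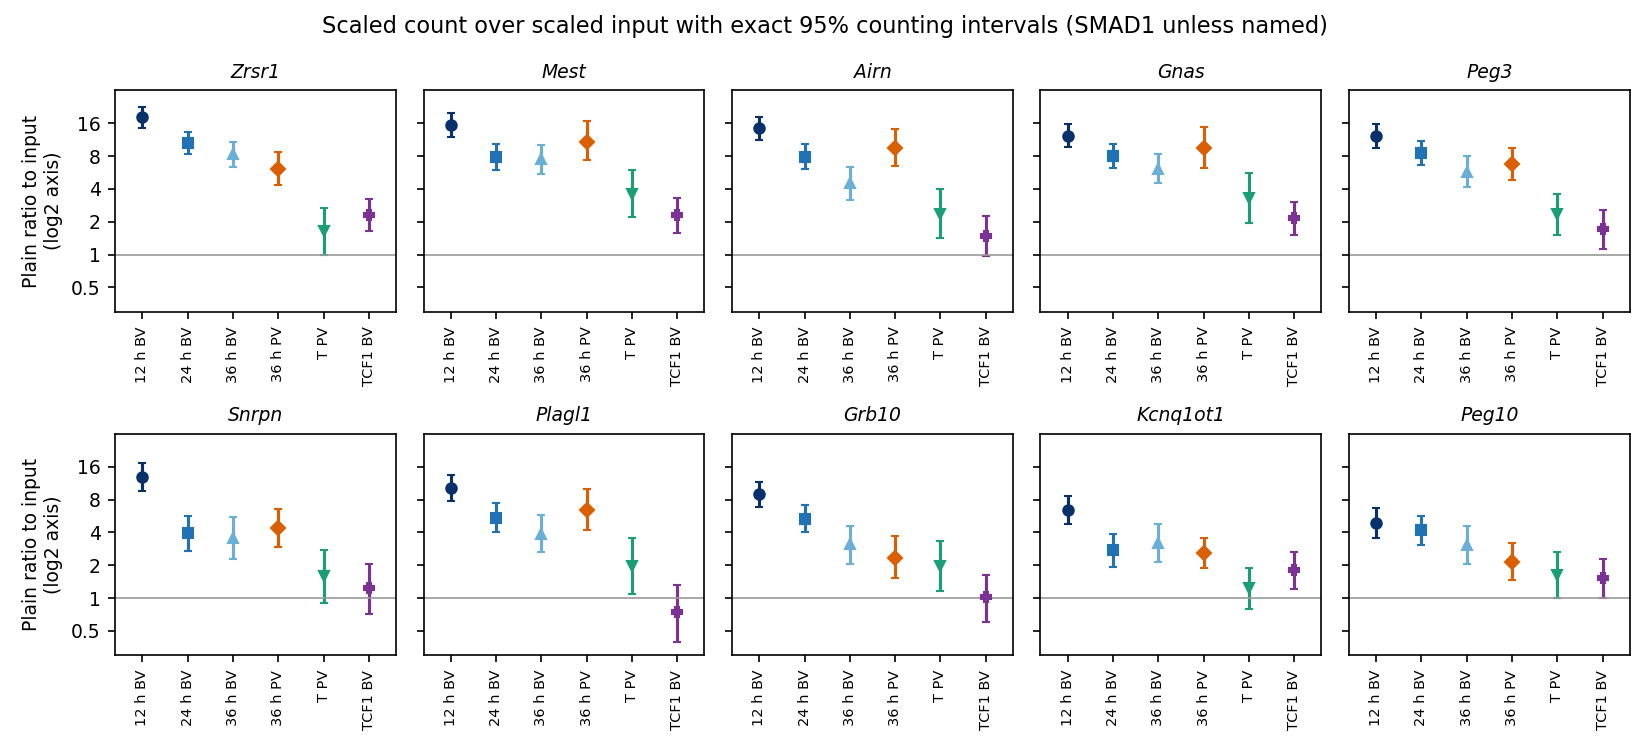
Scaled count over scaled input without a pseudocount (log2 axis) at the summit of each region, with the exact 95% interval of the split of the counts as bars, for SMAD1 at 12, 24 and 36 h BV and 36 h PV, and for T and TCF1. All SMAD1 intervals lie above 1, while T intervals do so at 7 regions and TCF1 intervals at 5.

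The order of the regions was only partly resolved by the counts. At 12 h it ran Zrsr1, Mest, Airn, Gnas, Peg3, Snrpn, Plagl1, Grb10, Kcnq1ot1, Peg10, and in each SMAD1 library the intervals of all 9 neighbouring pairs overlapped. The interval of Zrsr1 at 12 h (14.6 to 22.8) lay above those of 4 regions, Plagl1, Grb10, Kcnq1ot1 and Peg10. Mest led in PV (10.9, 95% interval 7.38 to 16.6). Between SMAD1 at 12 h in BV and in 36 h PV, which have different inputs, Spearman's rho over the 10 regions was 0.855. It was 0.624 between 24 h BV and 36 h PV and 0.842 between the 36 h libraries of the lines. The 10 points share the depth of each library and a summit chosen on these libraries together.

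The signal was narrow. The median enrichment over the 10 regions at 12 h was 8.17 in the summit window, 4.87 in the window starting 1 kb before and 3.46 in that starting 1 kb after, and 1.02 and 1.03 at 3 kb on either side. Stretches at 2-fold or more were 4 to 9 kb wide at 12 h, 2 to 7 kb at 24 h and in 36 h BV, and 3 to 5 kb in PV at 8 regions. Windows overlap and 2 kb is the smallest width, so true widths may be smaller. Summits lay at most 1 kb from the given positions. At Mest, Peg3, Gnas and Zrsr1 the given position is the start of the summit window itself, so this closeness was set by the choice of positions. Windows just inside 10 kb had a median 12 h enrichment of 1.03 (20 windows, 0.782 to 1.48) and those just outside 0.982 (20 windows, 0.717 to 1.56).

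**Figure D3:**
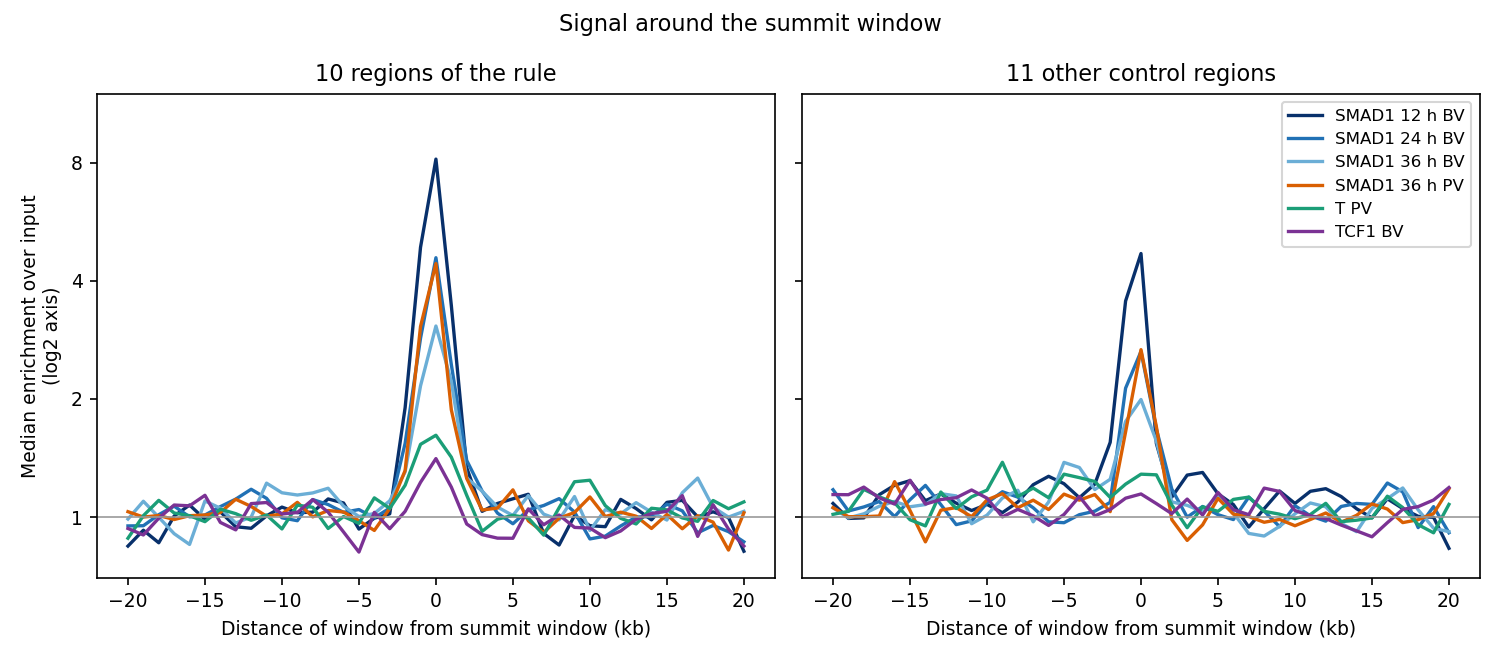
Median enrichment over input (log2 axis) against the distance of a window from the summit window, for the 10 regions (left) and for 11 other imprinted control regions (right), by library. In both panels the SMAD1 medians are at their highest at distance 0, where the choice of window puts them, and above T and TCF1 there. From 3 kb outward the SMAD1 medians lie between 0.818 and 1.26 (left) and between 0.832 and 1.38 (right), and those of T reach 1.24 and 1.38.

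Over time in BV the values were lower at later times. Log2 enrichment at 24 h minus that at 12 h had a median of -0.79 (range -1.56 to -0.21), lower at 10 of 10 regions, and the count interval excluded equality at 9, all but Peg10. From 24 to 36 h it was -0.37 (-0.74 to 0.20), lower at 9 of 10, with Kcnq1ot1 the exception, and the interval excluded equality at 4 (Peg3, Zrsr1, Airn and Grb10). Between 36 and 12 h it was -1.06 (-1.66 to -0.59), lower at 10 of 10, with intervals below equality at all 10. The share of tiles with such intervals was not computed, so how far these counts stand out from the genome is not known. The 3 libraries share input BV, and with 1 library per time, time and the yield of an immunoprecipitation cannot be told apart. The median over all windows was within 0.01 of 0 for each of these differences. The scaling puts this median near 0 whatever the yield, so it does not separate time from yield. The ratio of scaled counts at 36 to 12 h ran from 0.279 at Snrpn (95% interval 0.181 to 0.417) to 0.627 at Peg10 (0.405 to 0.956); the order was not resolved, as the interval of Snrpn overlapped that of Airn (0.312, 0.225 to 0.427).

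Outside the 10 regions and the other control regions, 112 tiles were called at 12 h, with median enrichments of 5.82 at 12 h, 3.16 at 24 h, 2.45 in 36 h BV and 4.23 in 36 h PV. The 9 members called at 12 h had medians of 8.36, 5.42, 3.30 and 4.59. Both sets were taken by their 12 h value, which by itself favours lower values in the other libraries, so these medians are no evidence on time. Among the 125161 tiles outside the 10 regions and the other control regions, 8 exceeded Zrsr1 at 12 h, 14 exceeded Mest and 152 exceeded Peg10. No test of the difference was made, because the members were chosen on this signal.

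Between the lines at 36 h, PV was higher at 6 of 10 regions and lower at Zrsr1, Kcnq1ot1, Grb10 and Peg10, with a median log2 difference (PV minus BV) of 0.33 (-0.39 to 0.98). The interval excluded equality only at Airn, where the ratio of ratios was 2.09 (95% interval 1.25 to 3.60). At the other 9 regions a difference was not detectable at this depth, for example 0.731 (0.471 to 1.15) at Zrsr1. The share of tiles whose interval excluded equality between the lines was not computed. Zrsr1 and Grb10 lie on chromosome 11, whose mean level relative to input BV was 1.10 in SMAD1 in 36 h BV, 0.899 in SMAD1 in PV and 0.861 in input PV. After division by the level of windows 20 to 200 kb away, the difference was -0.29 at Zrsr1 (-0.39 before) and -0.24 at Grb10 (-0.34 before).

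T and TCF1 enrichment was lower than SMAD1 enrichment at all 10 regions, though not beyond counting error in every comparison, as given below. The antibodies differ and each library is single, so binding and the yield of an immunoprecipitation cannot be told apart between factors. T ran from 1.18 (Kcnq1ot1) to 2.62 (Mest), with a median of 1.62, and TCF1 from 0.838 (Plagl1) to 1.91 (Zrsr1), with a median of 1.41. No region was called at 4-fold for either, where 0.2% of tiles were called for T and 0.0152% for TCF1 at the SMAD1 summit of the tile. At 2-fold or more T had Mest and Gnas (2 of 10, against 1.67% of tiles) and TCF1 had 0 of 10 (0.443%). Read at its own highest window of each region, T reached 2.76 at most, at Gnas 7 kb from the summit, and was at least 2-fold at 3 regions, Mest, Gnas and Peg10, against 5.87% of tiles. TCF1 at its own highest windows had 0 of 10, against 1.49% of tiles, and reached 1.91 at most.

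Within PV, where SMAD1 and T share an input, the median log2 difference of SMAD1 at 36 h minus T was 1.37 (0.20 to 1.79). SMAD1 was higher at 10 of 10 regions, with intervals excluding equality at 8, all but Grb10 and Peg10. The scaled count of SMAD1 was 4.00 times that of T at Airn (95% interval 2.83 to 5.82) and 3.04 times at Mest (2.24 to 4.19). Within BV, SMAD1 minus TCF1 had medians of 2.56 at 12 h, 1.81 at 24 h and 1.33 at 36 h, with SMAD1 higher at 10 of 10 regions at each time and intervals excluding equality at 10, 9 and 10. Kcnq1ot1 was the exception at 24 h (ratio 1.52, 0.974 to 2.38). For these differences between factors, too, the share of tiles with such intervals was not computed. The summits were chosen on SMAD1, which favours it; with each library at its own highest window the medians were 1.14 for SMAD1 minus T, and 2.38, 1.62 and 1.13 for SMAD1 minus TCF1.

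The plain ratio interval of T was above 1 at 7 of 10 regions (Mest, Peg3, Gnas, Airn, Plagl1, Grb10 and Peg10), against 11.2% of tiles at the SMAD1 summit and 3 of 11 other imprinted control regions. The ratio was highest at Mest with 3.58 (49 reads over 28, 95% interval 2.21 to 5.92). The interval of TCF1 was above 1 at 5 of 10 (Mest, Peg3, Gnas, Zrsr1 and Kcnq1ot1), against 19.9% of tiles and 1 of 11, and the ratio was highest at Zrsr1 with 2.32 (1.65 to 3.23). The median T enrichment of the 9 members called at 12 h was 1.64, against 1.16 (quartiles 0.974 and 1.48) at the 112 other tiles called at 12 h, and that of TCF1 was 1.47 against 1.08 (0.919 and 1.31). The counts of T and TCF1 do not enter the choice of the summits, but the inputs they are divided by do. A low input count at a summit would raise their ratios as well. The difference between members and other tiles was not tested. Input over input ranged at the 10 summits from 0.805 to 1.56 for PV over BV and from 0.750 to 1.15 for BVSC over BV. It did not reach 2 at any region. It holds no immunoprecipitation, and inputs BV and PV both enter the choice of summits, so it is no background level for T or TCF1.

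The same measurement was made at 11 other imprinted control regions, Nnat, Impact, Peg13, Nap1l5, Rasgrf1, H19, Dlk1-Meg3, Inpp5f, Mcts2, Slc38a4 and the Gnas exon 1A region. They were listed from general knowledge, at approximate mm9 positions that were not checked against an annotation. Earlier results of these data were known when the list was made, so its values too are a description and not a test. Their summits lay a median of 0.451 kb and at most 1.61 kb from those positions. At 12 h, SMAD1 was called at 8 of the 11 (0.104% of tiles were called), with a median enrichment of 4.69 and a range of 1.56 to 8.61. At 24 h 2 were called (0.0423% of tiles), and at 36 h 1 in BV (0.0144%) and 1 in PV (0.0647%).

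Nnat, on chromosome 2 at 157385001 to 157387001, was the strongest of these, with 8.61 at 12 h (177 reads over 105), 5.41 at 24 h, 4.09 in 36 h BV and 4.46 in PV. Impact had 6.05 at 12 h, Peg13 5.48 and Nap1l5 5.48, and Inpp5f 4.26. Slc38a4 (2.14), Mcts2 (2.58) and the Gnas exon 1A region (1.56) were not called at 12 h. At Gnas exon 1A the summit held only 11 reads at 12 h over 33 in the input and its plain ratio was 2.46 (95% interval 1.12 to 4.99), so that enrichment there is poorly resolved.

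SMAD1 signal was not limited to maternally methylated regions. The 3 paternally methylated ones, at H19, Dlk1-Meg3 and Rasgrf1, were all called at 12 h, at 4.69, 4.39 and 4.82, and the 8 maternally methylated ones of this list had a median of 4.87, with 5 called. H19, a noncoding RNA gene beside Igf2, held 111 reads at 12 h over 133 in the input (plain ratio 6.16, 95% interval 4.75 to 7.99) on chromosome 7 at 149766001 to 149768001. Rasgrf1, whose control region lies before a gene for an exchange factor of Ras, had few reads, 58 over 47 (ratio 9.11, 6.10 to 13.7). Of these 3 regions, none was called at 24 h or 36 h, T enrichment at them was 1.19 to 1.45 and TCF1 0.824 to 1.20, and of these 6 values only T at H19 had an interval above 1 (1.58, 1.04 to 2.38).

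**Figure D4:**
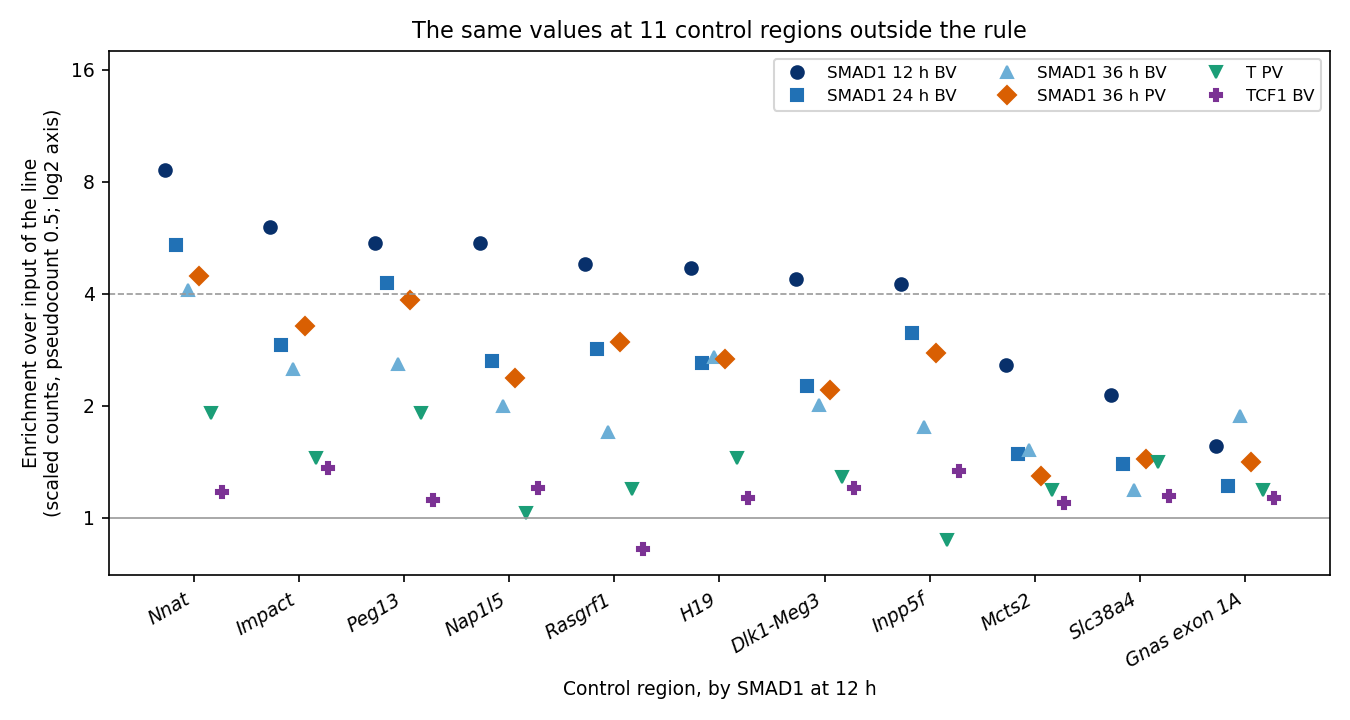
Enrichment over input (log2 axis, pseudocount 0.5) at 11 imprinted control regions outside the list of 10, for the 6 immunoprecipitated libraries; the dashed line marks 4. SMAD1 at 12 h is above 4 at 8 regions and highest at Nnat (8.61), and T and TCF1 stay below 2 at all 11.

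Differences between factors and times at the 11 regions had the same direction as at the 10. SMAD1 minus TCF1 at 12 h had a median log2 difference of 2.06 (2.56 at the 10) and SMAD1 in 36 h PV minus T one of 1.01 (1.37). From 12 to 36 h BV the median difference was -1.08 (-1.06), lower at 10 of 11, the exception being Gnas exon 1A. The 2 lists together overlapped 18 of the 130 tiles called at 12 h (13.8%), 9 each. Of all 125202 tiles, 125161 lay outside both lists. The 10 positions were chosen on SMAD1 signal, so their part of this share describes the choice.

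By the 6 log2 enrichments, the tiles most like the median of the 10 regions were sought among the 141 tiles outside both lists that were called in at least 1 SMAD1 library. The nearest lay on chromosome 5 at 143580001 to 143582001 (distance 0.564 in log2 units over the 6 libraries), with 7.21, 3.63, 3.22 and 3.94 for SMAD1, 1.71 for T and 1.09 for TCF1, and the next at 143579001, an overlapping window in the adjoining tile. The others started at 105314001 and 139047001 of chromosome 5, and at 71895001 of chromosome 8. No gene is named for them.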

How the data were processed

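ChIP-seq was measured in 6 immunoprecipitated and 3 input libraries, each the only library of its group. The authors deposited raw counts of reads per 2 kb window, 1 window starting every 1 kb; all values are whole numbers. The submitters' processing notes name Bowtie 0.12.8 and mm9. How duplicates and reads with several placements were handled is not stated there. Depth, from every other window, ran from 14925074 to 43354004 reads in the immunoprecipitated libraries and from 42532115 to 134657262 in the inputs, and a mean window of SMAD1 in 36 h BV held 11.8 counts.

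Scaling set the mean autosomal window to 1, and each library was divided by the input of its line, with a pseudocount of 0.5. Windows on autosomes and chromosome X with a mean scaled input of at least 0.25 were kept, 2368993 of 2639004. For plain ratios, 95% intervals are exact (Clopper-Pearson), from how 2 counts divide; comparisons across inputs have exact intervals of the conditional odds ratio (SciPy 1.17.1). Without molecular identifiers, reads copied by PCR cannot be told from separate molecules. The enrichment calculation was checked on simulated counts with known folds, which held counting error only and no extra spread from PCR copies. No limit was set there for the coverage of the intervals. All members and all 11 comparison regions are named in the text. The 5 tiles most like the members were chosen by the smallest distance over 6 log2 enrichments. The members and lists were chosen with earlier results of these data known.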

Additional observations from a re-analysis of the deposited data

How the results depend on the processing

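Of 240 recalculated summary values, 206 stayed within the allowance set, which was 1.5 times for a count and counting error for a median. For a median over the 10 regions, that counting error was about as wide as the interval of a single region, a loose allowance. All median differences over time, between lines and between factors stayed within it, under every alternative run for them. For 36 minus 24 h in BV (-0.37) and PV minus BV at 36 h (0.33), the allowance exceeded the median itself. A change of sign there would have passed, though none occurred under these alternatives. Other thresholds moved counts of members called: at 2-fold to 10 at 24 h, 10 in 36 h BV and 2 for T, at 3-fold to 8 at 24 h, and at 6-fold to 1 at 24 h, 1 in 36 h BV and 3 in 36 h PV. The counts of the other control regions became 8, 5 and 8 (24 h, 36 h BV, 36 h PV) at 2-fold and 3 in PV at 3-fold. At 6-fold these were 2 at 12 h and 0 at each of those 3. A pseudocount of 0.1 gave a median log2 enrichment of 3.49 at 12 h and 4 other regions called in PV, and a pseudocount of 1 gave 2.63, with 2 members called in 36 h BV and 4, 1, 0 and 0 other regions at 12 h, 24 h, 36 h BV and 36 h PV. At the window nearest each position, which for several members starts 1 kb before the summit, the medians were 2.46 at 12 h and 1.63 at 24 h. There 2, 1 and 3 members were called at 24 h, 36 h BV and 36 h PV, and 0 other regions in each. Division by the flanking level left 1 other region at 24 h and 0 in 36 h BV, and thinning to equal depth, each window separately, gave 4 in PV. For single regions, 63 of 882 values moved, relative to the reported value, by more than the counting interval of the plain ratio allows relative to that ratio, and 0 of those at 4 or more came out below 1; 25 of these 63 came from the window nearest the position. The causes were not tested. Input BVSC, another scaling, no filter on input and a radius of 5 kb moved no summary value beyond these allowances. Within them, input BVSC raised the members called to 7 at 24 h and 7 in 36 h PV, and lowered the other regions called at 12 h to 7. No paired analysis was possible because each group is 1 library, and depth limits the weakest values, such as 14 reads for TCF1 at Plagl1.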
